A study of Mus musculus with 28 samples.

Results

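The enteroendocrine lineage was followed in mouse colon organoids through 10 genes chosen by name: the transcription factors *Neurog3*, *Neurod1*, *Insm1*, *Pax4* and *Pax6*, the granins *Chga* and *Chgb*, and the hormone precursors *Gcg*, *Pyy* and *Tac1*. Of these, 9 were among the 13519 genes counted, and *Pax6* was not analysed here. *Neurog3* was higher after 4-hydroxytamoxifen (4-HT) in all 14 cultures, and *Insm1* in 13. *Gcg* and *Pyy* were lower in all 8 cultures that carried a *Braf* allele, while *Tac1* was higher in those same 8 cultures. Of the 6 cultures without it, *Gcg* was higher in 3, *Pyy* in 2 and *Tac1* in 2. Only *Tac1* was called for a difference with the *Braf* allele, and not when 2 PAC cultures described below were left out.

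Enteroendocrine cells are the hormone-secreting cells of the gut epithelium. They arise from crypt progenitors that leave Notch signalling, express *Atoh1* and then, for a short time, *Neurog3*, which switches on *Neurod1*, *Insm1*, *Pax4* and other factors of maturation. Mature cells store peptide hormones in dense-core granules filled with granins. In the colon the main types are L cells, which make *Gcg* and *Pyy* and often *Insl5*, and enterochromaffin cells, which make serotonin through *Tph1* and in part *Tac1*.

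All organoids came from the colon of C57BL/6N mice, and all carried VillinCreERT2, a tamoxifen-activated Cre driven by the promoter of an epithelial gene of the gut, together with APCflox/flox. AC organoids carried nothing further. PAC organoids also carried Trp53LSL-R172H/+, BAC organoids also BraffloxV600E/+, and BPAC organoids both alleles. The 14 cultures were split between vehicle (EtOH) and 3.5 µM 4-HT, given for 24 hours, and RNA was taken 3 days later. AC had 1 donor mouse and the other genotypes 2 each, every donor gave 2 cultures (duplicates 1 and 2, which are 2 passages), and 28 samples resulted. These donor numbers are those of the sample labels, whereas the study's methods give 2 donor mice for every genotype. Donor ages are not given in the sources used here. The medium of both arms contained Wnt3a, R-spondin-1, EGF, Noggin and a GSK3 inhibitor. Since no organoids with unfloxed *Apc* or without Cre were included, loss of *Apc* and 4-HT itself cannot be told apart in any genotype.

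Promoter entries were found in RefSeq (build GRCm38.p6) for 8 of the 10 genes. The 250 bases before the start site are shown for *Neurog3*, which rose in every genotype, and for the granin *Chga* and the hormone *Gcg*, which were lower with 4-HT in every BAC culture. Capitals mark the E-box CANNTG, read on both strands (the motif is its own reverse complement), which is the kind of site that basic helix-loop-helix proteins such as NEUROG3 and NEUROD1 bind. The *Neurog3* stretch lies on the plus strand at chr10:62132840-62133089, the *Chga* stretch on the plus strand at chr12:102554691-102554940 and the *Gcg* stretch on the minus strand at chr2:62483654-62483903.
Neurog3: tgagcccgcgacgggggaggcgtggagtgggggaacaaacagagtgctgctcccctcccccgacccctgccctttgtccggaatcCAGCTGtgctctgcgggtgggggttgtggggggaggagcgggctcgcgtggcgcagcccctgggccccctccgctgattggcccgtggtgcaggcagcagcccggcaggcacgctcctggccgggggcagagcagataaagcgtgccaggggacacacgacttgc
Chga: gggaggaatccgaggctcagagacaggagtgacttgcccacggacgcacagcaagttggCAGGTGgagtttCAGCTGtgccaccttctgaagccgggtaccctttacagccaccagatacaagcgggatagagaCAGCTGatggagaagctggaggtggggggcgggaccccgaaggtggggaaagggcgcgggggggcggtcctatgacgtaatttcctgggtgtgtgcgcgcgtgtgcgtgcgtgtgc
Gcg: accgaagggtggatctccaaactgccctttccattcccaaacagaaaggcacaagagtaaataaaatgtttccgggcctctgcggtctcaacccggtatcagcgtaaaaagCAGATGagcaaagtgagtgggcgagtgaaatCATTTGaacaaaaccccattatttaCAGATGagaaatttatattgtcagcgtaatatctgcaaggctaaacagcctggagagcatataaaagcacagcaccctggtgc
The *Neurog3* stretch holds 1 E-box, CAGCTG, which begins 165 bases before the start. The *Chga* stretch holds 3, of which 2 are CAGCTG, and the *Gcg* stretch holds 3, of which 2 are CAGATG. *Pyy*, also lower with 4-HT in every BAC culture, has 2 entries with 1 E-box each. The stretches of *Neurod1*, *Chgb* and *Tac1* hold 1, 1 and 2, and the 2 entries of *Pax6* hold 0 and 1. An E-box is common: 66.2% of 32536 promoter stretches of this length hold at least 1, 31.7% hold 2 or more and 12.2% hold 3 or more. CAGATG alone is in 14.4% and CAGCTG in 13.1%. These matches describe letters and were not tested as binding sites.

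Totals ranged from 20577276 to 40068718 counts per sample, and levels are given as CPM, read counts scaled to a common library size with TMM factors. *Trp53* with EtOH averaged 111.7 CPM in AC and 109.8 CPM in BAC but 57.9 CPM in PAC and 54.3 CPM in BPAC, and rose with 4-HT in every genotype. Gene-level counts of *Apc* and *Braf* do not check recombination, since whole-gene counts include exons outside the floxed part. All 10 markers of colon epithelium were counted, at 14160 to 22990 CPM in sum with EtOH and at 12070 to 15730 CPM with 4-HT. Of 11 markers of enteric neurons and glia only *Tubb3* and *Ret* were counted, at 5.64 to 14.7 CPM in sum, and of 10 fibroblast, endothelial and immune markers 3 were, at 0.694 to 3.85 CPM in sum. The 4-HT-treated samples of duplicate 1 from both PAC donors stood apart: each held *Xist* (834 and 636 counts) together with Y-linked counts (1822 and 1543), which no other sample did at over 10 counts of both, and they were closer to each other than any other pair (distance 23.7 on log2 CPM, next 40.3, median 86.0). The other samples of PAC donor 1 held 0 to 7 *Xist* counts and 2499 to 3731 Y-linked counts, and those of donor 2 held 1495 to 2402 and 0. Whether the 2 samples that stood apart hold material of both donors was not tested, and their donor labels are those of the sample titles. Fits without the 2 cultures of these samples are given beside the results for the 9 genes and for the lists of other genes that rest on PAC. In bulk RNA, fewer cells of a type and less RNA per cell cannot be told apart, here or in any result that follows.

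**Figure D1:**
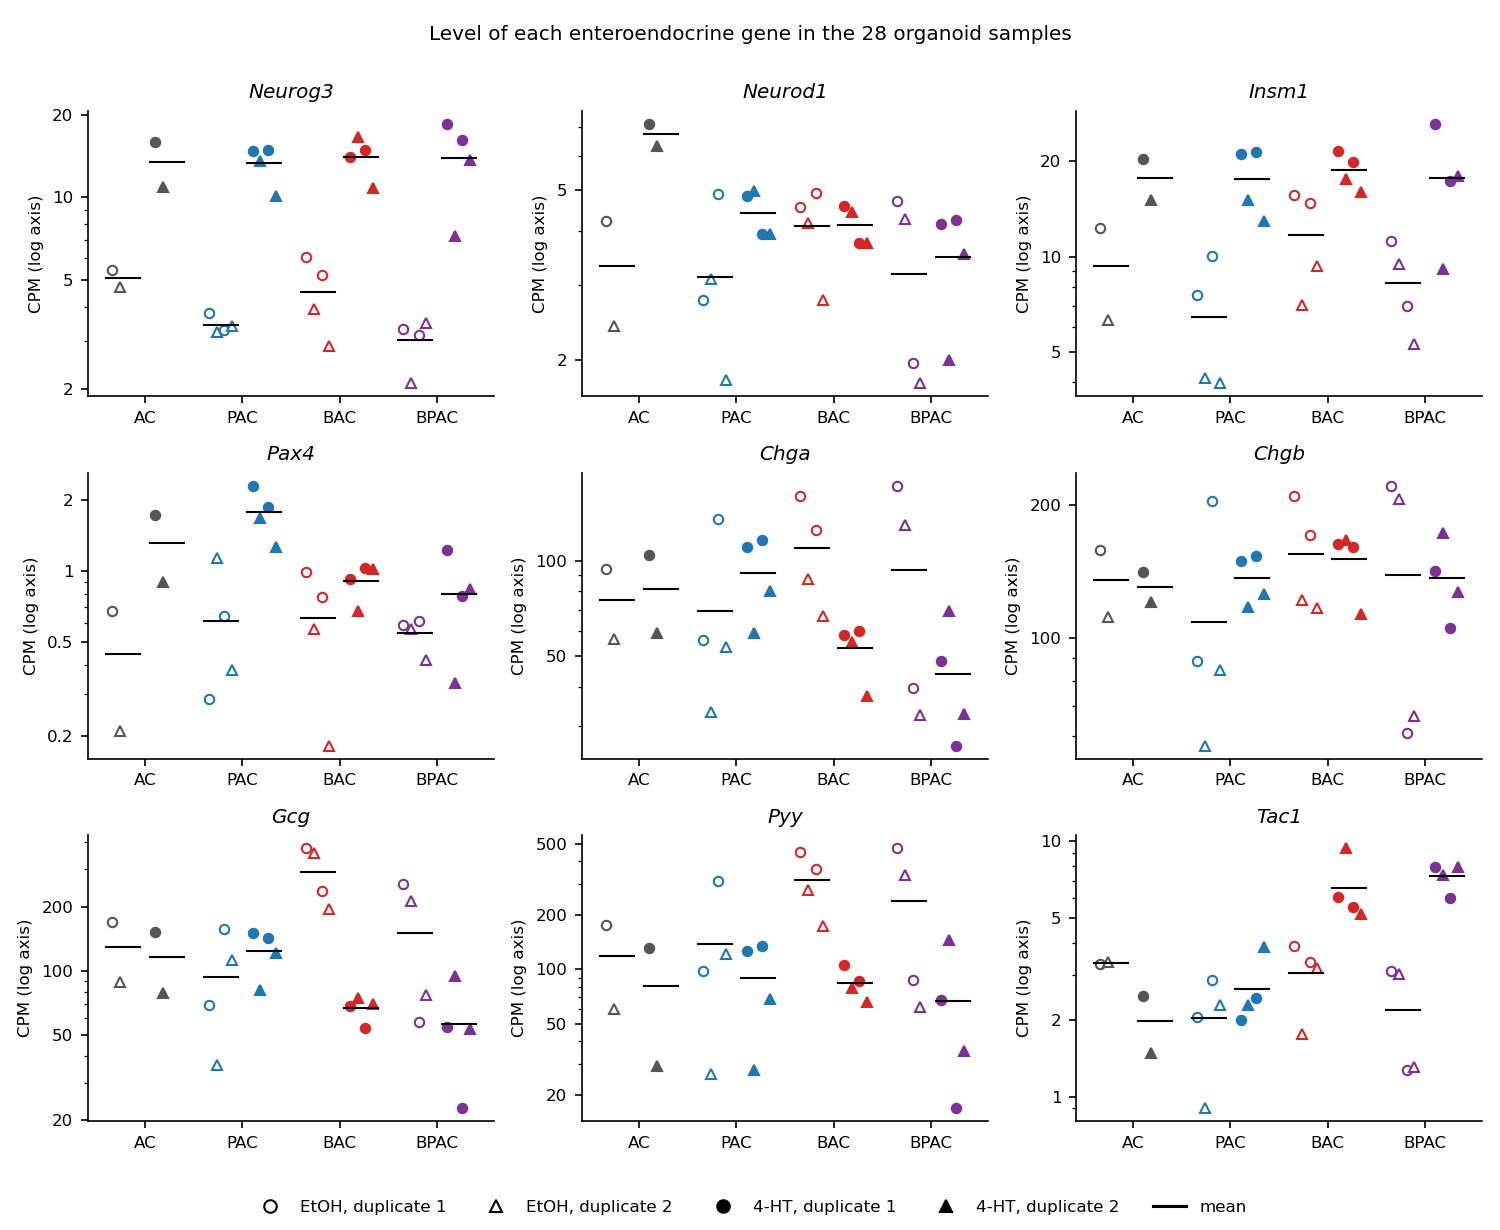
Level of the 9 counted genes in each sample, in CPM on a log axis, by genotype. Open symbols are EtOH and filled symbols 4-HT, circles are duplicate 1 and triangles duplicate 2, the points of donor 1 stand left of those of donor 2, and bars are group means. Every filled *Neurog3* point lies above every open point of its genotype, and in BAC every filled *Gcg* point, at 54.0 to 75.0 CPM, lies below every open point, at 195.6 to 374.7 CPM.

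The first question was how each gene changed with 4-HT within a genotype. Calls are by edgeR's quasi-likelihood test at a Benjamini-Hochberg adjusted p under 0.01 over all 13519 genes. This fit does not pair the samples of a culture, so its SE includes the spread between cultures. In AC 1 of 9 rose and none fell, beside 2.99% and 4.24% of all genes called in these directions. In PAC 3 rose and none fell, beside 11.1% and 12.2%. In BAC 2 rose and 1 fell, beside 20.3% and 21.4%, so that the share that rose was near that of all genes. In BPAC 3 rose and none fell, beside 22% and 22.9%. With the culture as a block, which compares each 4-HT sample with the EtOH sample of its own culture, 6 were called in BAC and 5 in BPAC, beside 51.9% and 54.4% of all genes. Without the 2 PAC cultures that stood apart, 0 were called in AC and 0 in PAC, beside 7% and 0.392% of all genes. With those cultures left out and the culture as a block, *Neurog3* was called in AC and *Neurog3* and *Insm1* in PAC, 1 and 2 genes of the 9 beside 17.1% and 6.85% of all genes. The 9 genes had a median log2 fold change of 0.11 (AC), 0.40 (PAC), 0.01 (BAC) and 0.14 (BPAC), against medians between -0.04 and 0.01 over all genes. Cultures of 1 donor were counted as separate samples, so the p-values measure the spread between cultures more than between mice.

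*Neurog3* (ENSMUSG00000044312, a single exon on chromosome 10, 62133090 to 62134763, plus strand) encodes the factor that commits progenitors to the enteroendocrine fate. Sample values are given for duplicates 1 and 2 of donor 1 and then for duplicates 1 and 2 of donor 2. In AC *Neurog3* was at 5.42 and 4.71 CPM with EtOH and at 15.9 and 10.9 CPM with 4-HT. In PAC it was at 3.80, 3.23, 3.29 and 3.40 CPM with EtOH and at 14.7, 13.6, 14.9 and 10.1 CPM with 4-HT. All 4-HT samples of these genotypes lay above all their EtOH samples. In BAC the 4 EtOH samples were at 6.04, 3.93, 5.20 and 2.87 CPM and the 4-HT samples at 13.98, 16.6, 14.9 and 10.9 CPM. In BPAC the EtOH samples were at 3.32, 2.10, 3.15 and 3.49 CPM and the 4-HT samples at 18.6, 7.24, 16.2 and 13.7 CPM. Again no ranges overlapped, and the lowest 4-HT sample of the series was duplicate 2 of BPAC donor 1. The log2 fold change was 1.41 ± 0.34 (SE, adjusted p = 0.00616) in AC and 1.96 ± 0.25 (5.18e-06) in PAC. It was 1.64 ± 0.24 (3.72e-06) in BAC and 2.21 ± 0.25 (6.15e-08) in BPAC. *Neurog3* was thus called in all 4 genotypes, and how many of all genes were called in all 4 was not counted. By limma-voom the AC value missed the threshold (1.39, adjusted p = 0.015). With 4-HT the group means stood close together, at 13.3 to 14.1 CPM, whereas with EtOH they ran from 3.01 CPM in BPAC to 5.07 CPM in AC, and neighbours in that order overlapped. In AC the call was lost without either culture (adjusted p = 0.198 and 0.0767), and without the 2 PAC cultures that stood apart the values were 1.83 (adjusted p = 0.0113) in PAC and 1.41 (adjusted p = 0.0105) in AC. With the culture as a block and those cultures left out, *Neurog3* passed in both, at 1.81 (adjusted p = 0.000436) in PAC and 1.39 (adjusted p = 0.000366) in AC. The *Neurog3* exon overlaps an exon of *Fam241b* on the opposite strand, and whether the counting used strand is not given in the sources used here; *Fam241b* itself, at 26.4 CPM, gave log2 fold changes from -0.25 to -0.07, none called.

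*Insm1* (ENSMUSG00000068154, a single exon on chromosome 2, 146221921 to 146225020, plus strand) encodes a zinc-finger factor needed for endocrine differentiation. In PAC it was at 7.56, 4.13, 10.1 and 3.97 CPM with EtOH and at 21.1, 15.1, 21.4 and 13.0 CPM with 4-HT. In BPAC it was at 11.2, 9.49, 6.95 and 5.29 CPM with EtOH and at 26.3, 9.11, 17.3 and 17.99 CPM with 4-HT. The PAC ranges were separate, while in BPAC duplicate 2 of donor 1 did not rise. *Insm1* rose in PAC by 1.45 ± 0.33 (SE) on the log2 scale (adjusted p = 0.0016) and in BPAC by 1.11 ± 0.33 (adjusted p = 0.00616). In AC, at 12.3 and 6.31 CPM with EtOH and 20.4 and 15.1 CPM with 4-HT, the log2 fold change was 0.93 ± 0.46 (adjusted p = 0.175). In BAC, with EtOH samples from 7.02 to 15.7 CPM and 4-HT samples from 15.96 to 21.5 CPM, it was 0.68 ± 0.32 (adjusted p = 0.08). With the culture as a block BAC passed as well (0.73, adjusted p = 0.00932), but not when the 2 PAC cultures that stood apart were also left out (0.73, adjusted p = 0.0128). Without the 2 PAC cultures that stood apart the PAC value was 1.79 (adjusted p = 0.0263), and with the block as well it passed (1.79, adjusted p = 0.00503). Leaving out duplicate 1 of PAC donor 1 alone ended the PAC call (1.44, adjusted p = 0.0111). Leaving out any of 3 BPAC cultures ended the BPAC call (adjusted p from 0.0223 to 0.0432).

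*Pax4* (ENSMUSG00000029706, chromosome 6, 28442334 to 28449353, minus strand) encodes a homeodomain factor of early endocrine precursors, and had only 5 to 76 counts per sample. In PAC it was at 0.287, 1.14, 0.641 and 0.382 CPM with EtOH and at 2.30, 1.68, 1.87 and 1.27 CPM with 4-HT. The PAC ranges were separate, and the log2 fold change was 1.56 ± 0.44 (SE, adjusted p = 0.00781). In AC it was at 0.678 and 0.210 CPM with EtOH and at 1.73 and 0.899 CPM with 4-HT, and the log2 fold change of 1.55 ± 0.65 did not pass (adjusted p = 0.102). In BAC and BPAC the changes of 0.54 ± 0.45 and 0.56 ± 0.46 did not pass, and their EtOH and 4-HT ranges overlapped. The PAC call rested on few counts: it was lost in 7 of the 14 fits that each left out 1 culture, and without the 2 PAC cultures that stood apart the value was 0.97 (adjusted p = 0.364).

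*Neurod1* (ENSMUSG00000034701, chromosome 2, 79452521 to 79456751, minus strand) encodes a factor directly downstream of NEUROG3. It was not called in any genotype. AC had 4.23 and 2.40 CPM with EtOH and 7.14 and 6.33 CPM with 4-HT, PAC had EtOH samples from 1.79 to 4.89 CPM and 4-HT samples from 3.94 to 4.96 CPM, BAC had 2.76 to 4.92 and 3.75 to 4.58 CPM, and BPAC had 1.76 to 4.71 and 2.00 to 4.26 CPM. Only in AC did the ranges separate, with a log2 fold change of 1.02 ± 0.43 (SE, adjusted p = 0.103). The PAC value was 0.50 (adjusted p = 0.211). Without the 2 PAC cultures that stood apart it was 0.87 (adjusted p = 0.226), and 0.90 (adjusted p = 0.136) with the culture as a block as well. The 2 BPAC donors moved apart, with mean changes of -0.62 in donor 1 and 1.03 in donor 2. Exons of *Neurod1* overlap exons of *Cerkl* on the same strand and of *Gm26755* on the opposite strand, neither of which was counted as a gene of its own, so the assignment of its reads is uncertain.

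**Figure D2:**
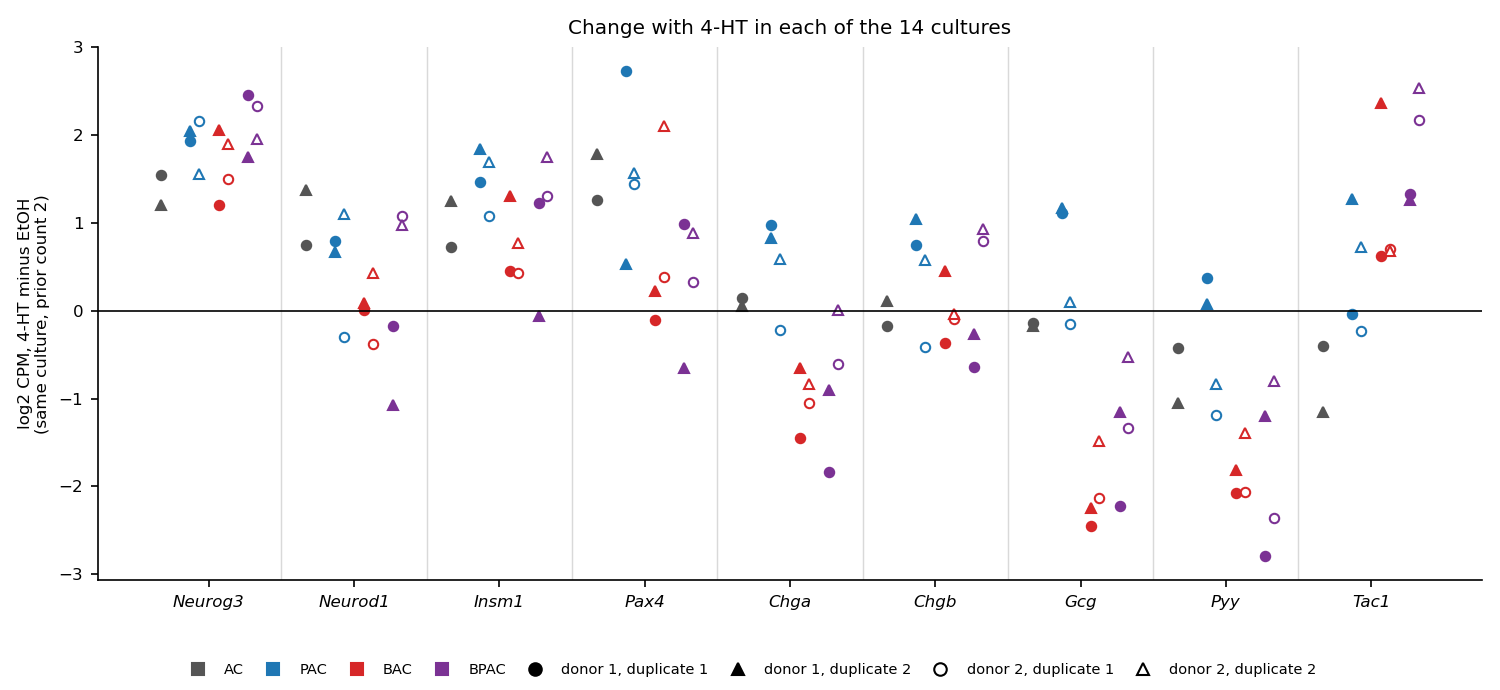
Change with 4-HT in each of the 14 cultures, as log2 CPM of the 4-HT sample minus the EtOH sample of the same culture, with colours for genotypes, filled symbols for donor 1 and open ones for donor 2. *Neurog3* lies between 1.20 and 2.46 in every culture, *Gcg* between -2.45 and -0.52 in the 8 cultures with the *Braf* allele and between -0.17 and 1.17 in the other 6.

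The granins are acidic proteins that help to form and fill secretory granules, and *Chga* and *Chgb* are general markers of mature endocrine cells. *Chga* (ENSMUSG00000021194, chromosome 12, 102554969 to 102565028, plus strand) was lower with 4-HT in BAC, where the EtOH samples were at 159.5, 87.4, 124.9 and 66.8 CPM and the 4-HT samples at 58.2, 55.5, 60.1 and 37.6 CPM. In BPAC the EtOH samples were at 172.1 and 129.6 CPM in donor 1 but 39.7 and 32.6 CPM in donor 2, and the 4-HT samples at 48.1 and 69.2 CPM against 26.1 and 32.7 CPM. The BAC ranges did not overlap, while in BPAC donor 1 lay above donor 2 under both treatments. Log2 fold changes of -1.05 ± 0.48 (SE, adjusted p = 0.0689) in BAC and -1.09 ± 0.48 (0.0596) in BPAC did not pass; with the culture as a block BAC did (-1.002, adjusted p = 0.00407) and BPAC was just outside (-0.85, 0.0118). In AC the values were 93.9 and 56.7 CPM with EtOH and 103.9 and 59.1 CPM with 4-HT. In PAC the EtOH samples ran from 33.2 to 134.9 CPM and the 4-HT samples from 59.2 to 115.9 CPM. Neither genotype was called (0.11 ± 0.67 and 0.40 ± 0.48), nor with the culture as a block (0.10, adjusted p = 0.86, and 0.54, adjusted p = 0.0973). The PAC value without the 2 PAC cultures that stood apart was 0.69 (adjusted p = 0.553), and 0.71 (adjusted p = 0.152) with the block as well.

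*Chgb* (ENSMUSG00000027350, chromosome 2, 132781278 to 132795079, plus strand) was at -0.05 to 0.33 in log2 fold change in the 4 genotypes, with SE of 0.37 to 0.52 and no call. The highest of these, in PAC, was 0.49 (adjusted p = 0.165) with the culture as a block. Without the 2 PAC cultures that stood apart the PAC value was 0.78 (adjusted p = 0.341), and 0.81 (adjusted p = 0.126) with the block as well. Its other levels are as follows. The group means of *Chgb* lay between 108.7 CPM in PAC with EtOH and 155.1 CPM in BAC with EtOH, and all neighbouring ranges overlapped. Its levels in BPAC with EtOH repeated the donor split of *Chga*, with 221.3 and 206.7 CPM in donor 1 and 60.9 and 66.6 CPM in donor 2. With 4-HT the same donors stood at 142.0 and 172.6 CPM and at 105.5 and 127.2 CPM.

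Among the hormone precursors, *Gcg* and *Pyy* were lower and *Tac1* higher with 4-HT in the genotypes with the *Braf* allele. *Gcg* (ENSMUSG00000000394, chromosome 2, 62474530 to 62483650, minus strand), which in L cells is processed to GLP-1 and GLP-2, was at 374.7, 355.1, 236.9 and 195.6 CPM in BAC with EtOH and at 68.3, 75.0, 54.0 and 69.8 CPM with 4-HT. Every 4-HT sample was below every EtOH sample. In BPAC it was at 253.7, 211.4, 57.8 and 76.9 CPM with EtOH and at 54.4, 95.2, 22.9 and 53.5 CPM with 4-HT. Each of the 4 BPAC cultures was lower with 4-HT, although the ranges overlapped, with donor 2 low already under EtOH. *Gcg* fell in BAC, with a log2 fold change of -2.12 ± 0.49 (SE, adjusted p = 0.000873). The BPAC value of -1.41 ± 0.48 missed the threshold (adjusted p = 0.0152) but passed with the culture as a block (-1.31, adjusted p = 0.00136). In AC, at 168.5 and 89.1 CPM with EtOH and 152.6 and 79.1 CPM with 4-HT, it was -0.15 ± 0.66. In PAC, with EtOH samples from 36.3 to 157.8 CPM and 4-HT samples from 81.8 to 150.4 CPM, it was 0.40 ± 0.47. Without the 2 PAC cultures that stood apart the PAC value was 0.44 (adjusted p = 0.736), and 0.62 (adjusted p = 0.271) with the block as well. The BAC call held in all 14 fits without 1 culture but not with the cultures of each donor summed (-2.11, adjusted p = 0.0332).

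*Pyy* (ENSMUSG00000017311, chromosome 11, 102106676 to 102107832, minus strand) encodes the anorectic peptide YY. In BAC it was at 449.3, 276.8, 360.6 and 173.4 CPM with EtOH and at 106.4, 78.6, 86.0 and 65.9 CPM with 4-HT. In BPAC it was at 471.7 and 334.7 CPM in donor 1 and 87.6 and 61.9 CPM in donor 2 with EtOH, and at 68.0, 145.7, 17.0 and 35.5 CPM with 4-HT. All 8 of these cultures were lower with 4-HT, and the BAC ranges were separate. The log2 fold changes of -1.90 ± 0.77 (SE) in BAC and -1.85 ± 0.77 in BPAC missed the threshold (adjusted p = 0.0415 and 0.0459) but passed with the culture as a block (-1.84, adjusted p = 0.000463, and -1.79, adjusted p = 0.000689). In AC it was at 177.0 and 60.7 CPM with EtOH and at 131.8 and 29.3 CPM with 4-HT. In PAC the EtOH samples ran from 26.2 to 308.8 CPM and the 4-HT samples from 27.7 to 135.3 CPM. The changes of -0.56 ± 1.06 in AC and -0.63 ± 0.75 in PAC were not called. With the culture as a block they were not called either (-0.73, adjusted p = 0.271, and -0.41, adjusted p = 0.341). The PAC value without the 2 PAC cultures that stood apart was -0.62 (adjusted p = 0.756), and -0.40 (adjusted p = 0.562) with the block as well.

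*Tac1* (ENSMUSG00000061762, chromosome 6, 7554879 to 7565834, plus strand) encodes the precursor of substance P and neurokinin A and is made by part of the enterochromaffin cells and by enteric neurons. In BAC it was at 3.89, 1.76, 3.37 and 3.20 CPM with EtOH and at 6.02, 9.37, 5.53 and 5.18 CPM with 4-HT. In BPAC it was at 3.10, 3.03, 1.27 and 1.30 CPM with EtOH and at 7.88, 7.38, 5.97 and 7.89 CPM with 4-HT. In both genotypes every 4-HT sample was above every EtOH sample. In AC it was at 3.31 and 3.36 CPM with EtOH and at 2.48 and 1.47 CPM with 4-HT, and in PAC at 2.04, 0.903, 2.85 and 2.29 CPM with EtOH and at 1.99, 2.27, 2.43 and 3.83 CPM with 4-HT. AC thus went down and PAC overlapped. The log2 fold change was 1.09 ± 0.32 (SE) in BAC (adjusted p = 0.00556), 1.74 ± 0.33 in BPAC (7.09e-05), -0.75 ± 0.46 in AC (0.287) and 0.37 ± 0.33 in PAC (0.393). The PAC value without the 2 PAC cultures that stood apart was 0.92 (adjusted p = 0.241), and 0.98 (adjusted p = 0.132) with the culture as a block as well. Without duplicate 2 of BAC donor 1, whose change was 2.37 where the other 3 were 0.62 to 0.70, the BAC value was 0.68 (adjusted p = 0.103). The BAC call was also lost without duplicate 1 or duplicate 2 of BAC donor 2 (1.21, adjusted p = 0.0121, and 1.20, adjusted p = 0.0119) and with the cultures of each donor summed, where the value was 1.06 (adjusted p = 0.0332). In BPAC the call held in all 14 fits without 1 culture. *Tubb3*, one of the 2 counted neuronal markers, rose in PAC (2.28 ± 0.36 on the log2 scale; 2.09 ± 0.49, adjusted p = 0.0222, without the 2 PAC cultures that stood apart) and BPAC (1.15 ± 0.34) and was 0.82 ± 0.34 in BAC (adjusted p = 0.0427), while it was 1.41 ± 0.47 in AC (0.0389) and *Ret* was not called in any genotype; the other 9 markers of neurons and glia were not counted, and the part of neuronal transcripts in *Tac1* was not tested.

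**Figure D3:**
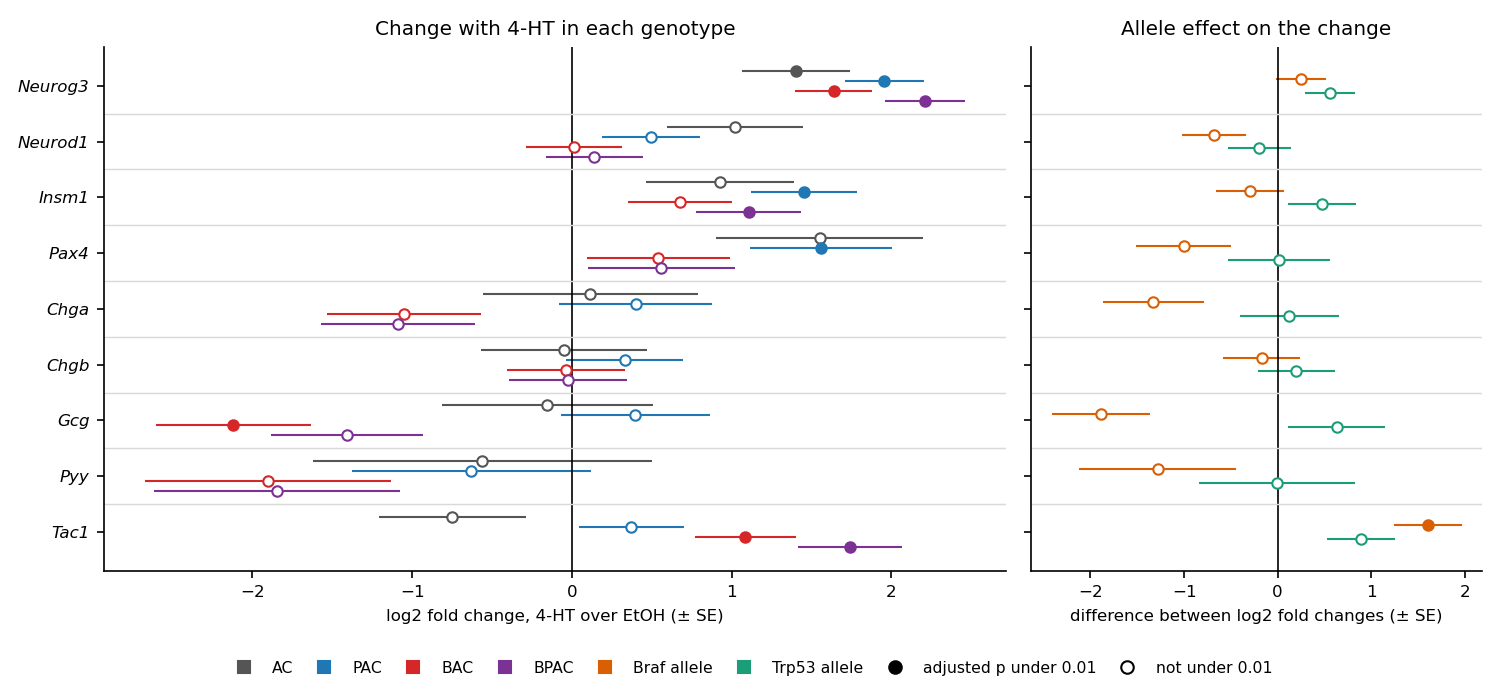
Fitted log2 fold change with 4-HT in each genotype (left) and the difference that the *Braf* or *Trp53* allele made to it (right), with SE as bars and filled points where adjusted p was under 0.01. *Tac1*, at 1.60 ± 0.36, is the only filled point on the right.

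The second question was whether the *Braf* allele altered the change, tested by subtracting the mean change of AC and PAC from that of BAC and BPAC. Of the 9 genes 1 was called, beside 6.5% of all genes, and 0 without the 2 PAC cultures that stood apart, beside 5.83%. *Tac1* had a difference of 1.60 ± 0.36 (SE) on the log2 scale (adjusted p = 0.00415). Its change over the 8 cultures with the allele ran from 0.62 to 2.54 with a median of 1.29, and over the 6 without it from -1.15 to 1.27 with a median of -0.13, so the ranges overlapped through duplicate 2 of both PAC donors (1.27 and 0.73). The hormones of L cells had differences below 0, with *Gcg* at -1.89 ± 0.53 (adjusted p = 0.0192) and *Pyy* at -1.28 ± 0.84 (adjusted p = 0.336). The per-culture changes of *Gcg* ran from -2.45 to -0.52 with the allele and from -0.17 to 1.17 without it, so they did not overlap. How many of all genes separated in this way was not counted. *Chga* was at -1.33 ± 0.54 (adjusted p = 0.101), and *Chgb* at -0.17 ± 0.41. With the culture as a block *Gcg* (-1.89, adjusted p = 0.0011) and *Chga* (-1.25, adjusted p = 0.007) passed as well, beside 13.8% of all genes. They also passed with the block and without the 2 PAC cultures (-1.93, adjusted p = 0.00205, and -1.33, adjusted p = 0.00638), beside 13.5% of all genes, while *Tac1* did not (1.34, adjusted p = 0.0151). *Neurog3* had a difference of 0.25 ± 0.27 and *Insm1* of -0.30 ± 0.36, while *Neurod1* at -0.68 ± 0.34 and *Pax4* at -1.01 ± 0.51 were lower without passing. The *Tac1* difference missed the threshold without the 2 PAC cultures that stood apart (1.33, adjusted p = 0.0317), without duplicate 1 of PAC donor 1 alone (adjusted p = 0.0104), without either AC culture (adjusted p = 0.0163 and 0.0457) and with the cultures of each donor summed (1.62, adjusted p = 0.0302).

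The *Trp53* allele was tested in the same way, with the genotypes regrouped into PAC and BPAC against AC and BAC. None of the 9 was called by edgeR, limma-voom or DESeq2, beside 0.0148% of all genes by edgeR. Unadjusted p was under 0.05 for 2 of the 9: *Tac1*, at 0.89 ± 0.36 (SE) on the log2 scale, and *Neurog3*, at 0.56 ± 0.27. Over all genes 135 reached that level. Without the 2 PAC cultures that stood apart none of the 9 was called either, with *Tac1* at 1.16 ± 0.40 (unadjusted p = 0.00852, edgeR) and *Neurog3* at 0.50 ± 0.31 (unadjusted p = 0.123, edgeR).

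The mutant alleles are built to be expressed only after Cre acts, and the levels with EtOH were therefore compared between genotypes with and without each allele. For the *Braf* allele none of the 9 was called by any of the 3 tools, beside 0.0222% of all genes by edgeR. Only *Gcg* had an unadjusted p under 0.05, with a log2 difference of 0.92 ± 0.38 (SE, adjusted p = 0.229), and *Pyy* was at 1.09 ± 0.61 (adjusted p = 0.372). Over all genes 2297 had an unadjusted p under 0.05. *Gcg* with EtOH averaged 290.6 ± 87.8 CPM (SD, n = 4) in BAC, 150 ± 97.2 CPM in BPAC, 128.8 ± 56.2 CPM (n = 2) in AC and 94.1 ± 52.8 CPM in PAC. For the *Trp53* allele none of the 9 was called by edgeR, limma-voom or DESeq2 either, beside 0.0592% of all genes by edgeR. *Neurog3* at -0.57 ± 0.19 and *Tac1* at -0.61 ± 0.26 were among the 658 genes with an unadjusted p under 0.05, and without the 2 PAC cultures they were at -0.60 ± 0.23 and -0.77 ± 0.29 with no call among the 9. These level differences enter the differences between changes above, since both use the same EtOH samples.

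The duplicates also differed. Duplicate 2 was lower than duplicate 1 with EtOH for all 9 genes, with a median log2 difference of -0.57 against -0.02 over all genes. *Insm1* alone was called (-0.82 ± 0.18, SE, adjusted p = 0.00298), beside 15.2% of all genes. *Pyy* had the largest difference of the 9, at -1.09 ± 0.60 (adjusted p = 0.194), and *Chga* was at -0.78 ± 0.40 (adjusted p = 0.158). By limma-voom the *Insm1* difference was -0.81 (adjusted p = 0.0106).

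Per kilobase of exon, the 9 genes kept nearly the same order in all 8 groups. *Pyy* had the highest level throughout, at 105.5 to 499.2 CPM per kb on average, and *Chga* had rank 4 throughout, at 15.97 to 39.8 CPM per kb. *Gcg* had rank 2 and *Chgb* rank 3 in 6 groups, and they changed places in BAC and BPAC with 4-HT, where *Gcg* averaged 44.7 ± 6.04 (SD, n = 4) and 37.8 ± 19.8 CPM per kb. *Neurog3* and *Insm1* shared ranks 5 and 6, at 1.80 to 8.40 and 2.07 to 6.04 CPM per kb. *Neurod1*, *Tac1* and *Pax4* filled ranks 7 to 9, and *Tac1* had rank 7 in BAC and BPAC with 4-HT.

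The deviations of the samples from their group means showed which genes varied together. *Chga* and *Chgb* had a Pearson r of 0.96 over the 28 samples, *Chga* and *Pyy* 0.94 and *Gcg* and *Pyy* 0.92. *Neurog3* stood outside this group, with r of 0.02 to *Chga* and -0.14 to *Gcg*, but 0.59 to *Pax4* and 0.56 to *Insm1*. *Tac1* varied with *Chgb* (0.75) more than with the factors. The samples share donors and duplicates, so these values are descriptions without a test. Over all genes, those most like *Chgb* were *Tph1*, the rate-limiting enzyme of serotonin synthesis (0.96), *Chga* (0.96), *Ckmt1* (0.94), *Hk1* (0.94) and *Sox13* (0.93). Those most like *Gcg* were *Pyy* (0.92), *Insl5* (0.91), the granin *Scg2* (0.90), *Chp2* (0.90) and *Tradd* (0.90). Those most like *Insm1* were *Actr1b* (0.95), *Rab1b* (0.93), *Cdx1* (0.93), *Eif4h* (0.93) and *Nfyc* (0.93).

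**Figure D4:**
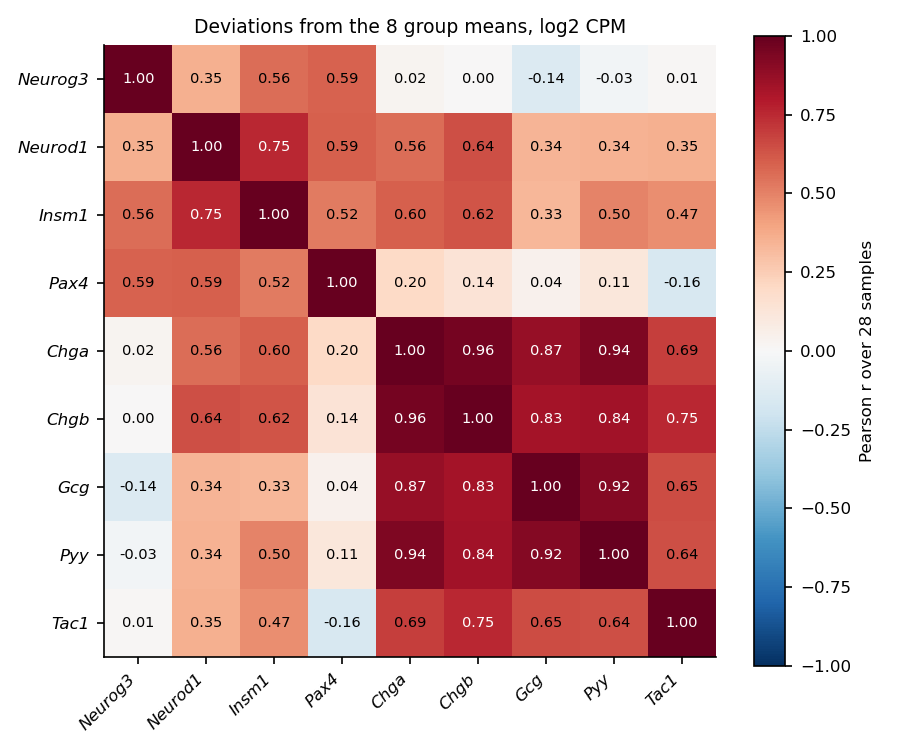
Pearson r between genes of the deviations of log2 CPM from the 8 group means, over 28 samples, with red for positive and blue for negative values. The granins and the L-cell hormones form a block of 0.83 to 0.96, and *Neurog3* lies between -0.14 and 0.02 to them.

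The other genes of the lineage were taken from 5 lists, of which some hold the 9 genes as well. Their counts are read against the shares of all genes called, which were 2.99% up and 4.24% down for AC, 11.1% and 12.2% for PAC, 20.3% and 21.4% for BAC, and 22% and 22.9% for BPAC. Without the 2 PAC cultures that stood apart, *Hes6* was the only gene of the 5 lists called in PAC in the fit without the block, where 0.392% of all genes were called. Of 14 genes that govern the secretory choice, Notch genes included, all were counted; 4 rose in AC and 9 in PAC, while 4 rose and 1 fell in BAC and 6 rose and 1 fell in BPAC. The rising counts were above the share of all genes in AC, PAC and BPAC, while 4 of 14 in BAC was near 20.3%, and the single falls were below 21.4% and 22.9%. *Atoh1*, the factor that opens the secretory fate, rose in all 4 genotypes, by 1.499 ± 0.29 (SE) on the log2 scale in AC, 1.49 ± 0.21 in PAC and 1.29 ± 0.21 in both BAC and BPAC. *Hes6*, an antagonist of *Hes1*, also rose in all 4, by 0.97 to 1.17. In the same list *Hes5* rose in AC (2.33 ± 0.53) and PAC (1.445 ± 0.35) and was at 0.63 in BAC and -0.10 in BPAC without a call. *Hes1* rose in PAC (0.51 ± 0.14) and was at 0.295 to 0.60 in the other genotypes without a call. When the 2 PAC cultures were left out, the PAC values were 0.98 for *Atoh1* (adjusted p = 0.0396) and 0.85 for *Hes6* (adjusted p = 0.00375). *Spdef*, a factor of goblet cell maturation, rose in PAC, BAC and BPAC (1.08, 1.53 and 1.66), and the antiproliferative gene *Btg2* fell in BAC (-0.38) and BPAC (-0.48). The Notch ligand *Dll1* had a *Braf* difference of -1.17 ± 0.29 (adjusted p = 0.00769), which missed the threshold without the 2 PAC cultures (-1.11, adjusted p = 0.0323).

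Of 26 transcription factors of the lineage 19 were counted; 1 rose in AC and 7 in PAC, while 3 rose and 1 fell in BAC and 5 rose in BPAC. Only the PAC count was well above the share of all genes (11.1% up): 1 of 19 in AC and 5 of 19 in BPAC were near 2.99% and 22%, and 3 of 19 up and 1 of 19 down in BAC were below 20.3% and 21.4%. Besides *Neurog3*, *Insm1* and *Pax4*, the forkhead factor *Foxa1* rose in PAC, BAC and BPAC (0.37 to 0.45) and *Foxa2* in BAC (0.81 ± 0.21) and BPAC (1.00 ± 0.21). *Sox4* rose in PAC (0.95 ± 0.18) and was at 0.94 ± 0.26 in AC (adjusted p = 0.0137). Its PAC value without the 2 cultures was 0.67 (adjusted p = 0.113). *St18*, a factor of endocrine precursors, fell in BAC (-1.45 ± 0.42) and had a *Braf* difference of -2.15 ± 0.45 (adjusted p = 0.00217), the only one of this list past the threshold there, beside 6.5% of all genes, and also past it without the 2 PAC cultures (-2.51, adjusted p = 0.00163). *Rfx3* was not called in any genotype (0.26 to 0.37).

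Of 32 genes of granule formation and release 31 were counted; none was called in AC, 3 rose and 2 fell in PAC, 4 fell in BAC, and 1 rose and 7 fell in BPAC. The falls in BPAC were near the 22.9% of all genes, and the other counts were near or below the shares of all genes in their genotype and direction. In the fit without the 2 PAC cultures 6 fell in BAC, *Scgn* and *Vamp2* in addition. The median log2 fold change of the list was -0.52 in BAC and -0.34 in BPAC against -0.04 over all genes in both. *Pam*, which amidates peptide hormones, fell in PAC (-0.42 ± 0.10), BAC (-1.10 ± 0.10) and BPAC (-1.26 ± 0.10). *Cpe*, the carboxypeptidase that trims prohormones, rose in PAC (0.53 ± 0.14) and fell in BPAC (-0.62 ± 0.14). *Cplx2*, a regulator of granule fusion, rose in PAC (1.14 ± 0.19) and fell in BAC (-0.89 ± 0.20). *Cadps2*, which primes granules for release, fell in BAC (-0.85 ± 0.14) and BPAC (-0.80 ± 0.14). *Pam*, *Cpe*, *Cplx2* and the calcium sensor *Scgn* had *Braf* differences below 0 that passed: -0.79 ± 0.11 for *Pam*, -0.72 ± 0.16 for *Cpe*, -1.43 ± 0.21 for *Cplx2* and -1.70 ± 0.43 for *Scgn*. These 4 of 31 stand beside 6.5% of all genes. All 4 passed without the 2 PAC cultures as well, where the differences were -0.78 ± 0.13 (adjusted p = 0.000502), -0.75 ± 0.16 (0.00397), -1.41 ± 0.25 (0.00101) and -1.99 ± 0.45 (0.00577), by edgeR and beside 5.83% of all genes.

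Of 22 hormones and genes of amine synthesis and breakdown 16 were counted; 1 fell in AC, 1 rose and 3 fell in PAC, 2 rose and 6 fell in BAC, and 2 rose and 4 fell in BPAC. The falls in BAC were above the 21.4% of all genes and those in BPAC near 22.9%, whereas the rises in both were below 20.3% and 22%. *Sct*, which encodes secretin, was below 0 in all 4 genotypes without a call (-1.81 to -1.03). *Insl5*, another hormone of colonic L cells, fell in BAC (-2.76 ± 0.78, adjusted p = 0.00518) and was at -2.12 ± 0.77 in BPAC (adjusted p = 0.0236); without the 2 PAC cultures the BAC value was just outside (adjusted p = 0.0103). *Ddc*, which makes serotonin from its precursor, fell in all 4 genotypes (-0.72 to -0.34; without the 2 PAC cultures adjusted p was 0.0114 in AC and 0.134 in PAC), and *Dpp4*, which inactivates GLP-1, fell in PAC, BAC and BPAC (-1.55 to -1.18). Both are also expressed in absorptive cells. The riser besides *Tac1* was *Iapp*, which encodes amylin and was singled out after its values were seen (2.86 ± 0.55 in PAC, 2.24 ± 0.61 in BAC and 2.56 ± 0.58 in BPAC; 3.19 ± 0.88, adjusted p = 0.014, in AC). Of 30 nutrient sensors, receptors and channels 14 were counted; none was called in AC, 3 fell in PAC, 1 rose and 5 fell in BAC, and 1 rose and 3 fell in BPAC. The falls in BAC and PAC were above the 21.4% and 12.2% of all genes and those in BPAC near 22.9%, while 1 riser of 14 was below 20.3% and 22%. *Ffar2*, a receptor of short-chain fatty acids, rose in BAC (1.17 ± 0.26) and BPAC (1.06 ± 0.25), the adrenergic receptor *Adra2a* fell in PAC, BAC and BPAC (-1.93 to -1.496), and the glucose transporter *Slc5a1* fell in PAC, BAC and BPAC (-0.80, -1.69 and -1.78) with a *Braf* difference of -1.16 ± 0.16 (-1.31 ± 0.15 without the 2 PAC cultures, past the threshold in both fits).

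**Figure D5:**
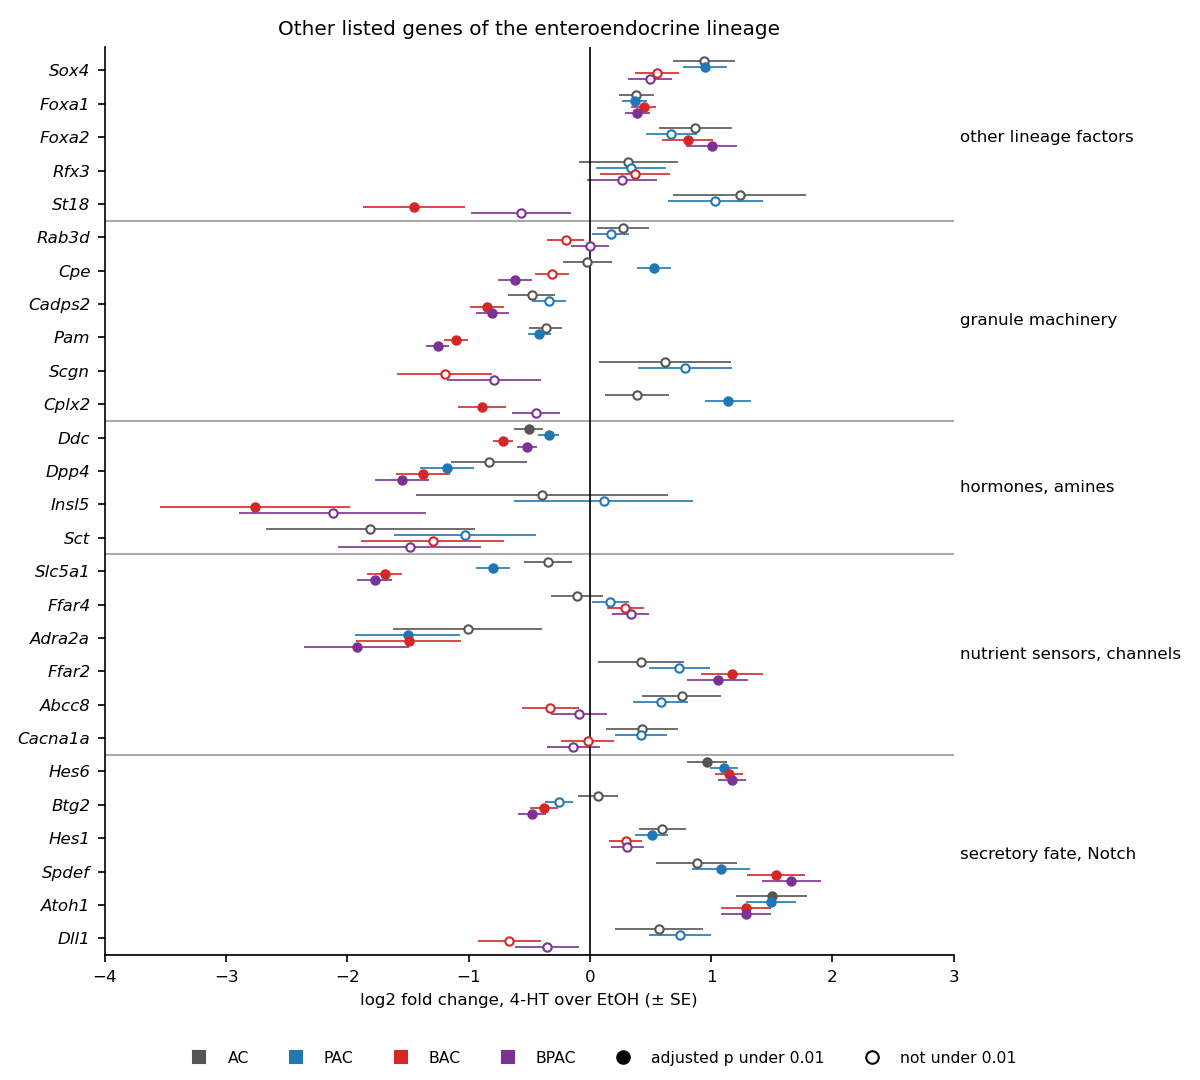
Log2 fold change with 4-HT, with SE as bars, for the other listed genes of the lineage in the 4 genotypes, grouped by role, with filled points where adjusted p was under 0.01. *Atoh1* and *Hes6* are filled to the right in all 4 genotypes and *Ddc* to the left, while *St18*, *Scgn*, *Cplx2* and *Dll1* have AC and PAC right of 0 and BAC and BPAC left of it.

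Markers of the neighbouring cell types are read against the same shares of all genes. Of 7 markers of absorptive colonocytes 4, 5, 6 and 6 fell in AC, PAC, BAC and BPAC, each above the 4.24%, 12.2%, 21.4% and 22.9% of all genes, and their summed level went from 14690 to 24580 CPM with EtOH to 2855 to 10650 CPM with 4-HT. Of 10 general markers of colon epithelium 1, 4, 6 and 6 fell and none rose, which was above the shares of all genes in PAC, BAC and BPAC. Of 5 counted stem cell markers 3, 5, 4 and 5 rose, each above the 2.99%, 11.1%, 20.3% and 22% of all genes, from 187.7 to 350.7 CPM with EtOH to 471.0 to 735.6 CPM with 4-HT. Of 7 goblet cell markers none was called in AC, *Spink4* rose in PAC, and 3 fell and *Agr2* rose in BAC and in BPAC; the risers were near or below the share of all genes. Of 6 counted tuft cell markers none was called in AC or PAC, 3 fell in BAC and 2 in BPAC. The falls of both lists were above 21.4% in BAC, and in BPAC those of the goblet cell markers were above 22.9% and those of the tuft cell markers, at 2 of 6, nearer to it. In the fit without the 2 PAC cultures the only marker of these 5 lists called in PAC was *Ascl2*, and 2 goblet cell markers fell in BAC and in BPAC. The part of these shifts in the enteroendocrine values was not tested.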

How the data were processed

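Bulk RNA-seq of colon organoids was analysed from the table of raw counts per gene that the authors deposited, whole numbers without normalization for 13519 genes, 13479 of them with a symbol in GENCODE vM21 (GRCm38). The submitters' processing notes name Trimmomatic 0.39 and STAR 2.5.2b with GRCm38; the counting program, its annotation and its strandedness are not given in the sources used here. The lowest row sum was 116. Totals ranged from 20577276 to 40068718 counts per sample.

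Counts were scaled with TMM and tested with edgeR 4.0.16 (R 4.3.3), the robust quasi-likelihood test on 8 groups (genotype by treatment), Benjamini-Hochberg adjusted over all genes, and a threshold of 0.01 as in the study. The study used limma without naming a design; limma-voom (limma 3.58.1) and the DESeq2 1.42.0 Wald test were alternatives, with other scalings, a filter of 5 CPM in 2 samples, culture as a block, summed donors, each duplicate alone, other prior counts and each culture left out. Changes per culture are log2 CPM with a prior count of 2. The culture pairs the samples by design, and the deviations of its 2 samples from their group means correlated (r of 0.245 to 0.532 over 12 cultures). The test was also run on simulated counts with known changes. Those counts were drawn independently for each sample, without shared donor or culture effects, so that run does not check such effects. The genes and lists were chosen with earlier results of these data known. Named are the members, the 6 highest genes of each list, those called in all 4 genotypes or for an allele, *Hes1* and *Hes5*, and the 5 most like a leading member. The 1 sample whose label lacks a duplicate number was counted as duplicate 1. Figures were drawn with matplotlib 3.10.9.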

Additional observations from a re-analysis of the deposited data

Results flagged for a closer look

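A sample that lay far from the other 3 of its group was found in 2 of 81 groups of 4 tested with Dixon's criterion, and chance gives about 1 in 20. *Chgb* in BAC with 4-HT was at 113.5 CPM in duplicate 2 of donor 2, where the other samples were at 160.7 to 166.7 CPM. The *Tac1* change in BAC was 2.37 on the log2 scale in duplicate 2 of donor 1, where the others were at 0.62 to 0.70. In that culture the EtOH sample, at 1.76 CPM, was the lowest of the group and the 4-HT sample, at 9.37 CPM, the highest.

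The 4-HT change of *Tac1* differed between organoids with and without the *Braf* allele, with an interaction of 1.60 ± 0.36 (SE) on the log2 scale (edgeR, adjusted p = 0.00415). The change was above 0 in 8 of 8 cultures with the allele and in 2 of 6 without it, or in 2 of 4 when the duplicate 1 cultures of both PAC donors, at -0.03 and -0.22, are left out. The difference missed the threshold without those 2 cultures (1.33, edgeR adjusted p = 0.0317), without duplicate 1 of PAC donor 1 alone (0.0104), without either AC culture (0.0163 and 0.0457) and with the cultures of each donor summed (1.62, 0.0302).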

How the results depend on the processing

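Counts of called genes are out of 9. With limma-voom 0 were called in AC and 0 between duplicates, beside 992 and 1935 of all genes. The reported fit called 1 each, beside 977 and 2057. DESeq2 called 2 for the *Braf* effect on the change, beside 1449 of all genes. With the culture as a replicate block, 6 were called in BAC (3 up, 3 down), 5 in BPAC (3 up, 2 down) and 3 for the *Braf* effect (1 up, 2 down). These stand beside 51.9%, 54.4% and 13.8% of all genes, and the block changed no call in AC or PAC. With the cultures of each donor summed 0 were called for the *Braf* effect, and the 2 called in BAC were *Neurog3* and *Insm1* (0.71, adjusted p = 0.00926), while *Gcg* and *Tac1* lost their BAC calls (adjusted p = 0.0332 for both). The fits of each duplicate alone hold 14 of the 28 samples and leave 1 sample in each AC arm, so sizes are given in place of counts. Neither kept all the calls of the reported fit. With duplicate 1 and duplicate 2 alone, *Neurog3* in AC was at 1.535 and 1.21 and *Gcg* in BAC at -2.30 and -1.93. The *Braf* difference of *Tac1* was 1.46 and 1.81. Without the duplicate 1 cultures of both PAC donors 0 were called in AC, 0 in PAC and 0 for the *Braf* effect, beside 7%, 0.392% and 5.83% of all genes. That setting together with the block was chosen after seeing the data, as was its use for the listed genes. It gave 1 in AC and 2 in PAC (all up), beside 17.1% and 6.85% of all genes. In BAC 5 were called (2 up, 3 down) and in BPAC 6 (3 up, 3 down), beside 7001 and 7299 of all genes. For the *Braf* effect 2 were called (both down), beside 13.5% of all genes. Leaving out each culture in turn gave 0 to 1 in AC (0 without either AC culture), 1 to 3 in PAC (1 without duplicate 1 of donor 1), 2 to 3 in BAC, 2 to 4 in BPAC and 0 to 2 for the *Braf* effect (0 without either AC culture or duplicate 1 of PAC donor 1, 2 without duplicate 1 of BPAC donor 2). Where an arm kept 1 sample, it was assumed to vary like the other groups.

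No called value changed sign under any alternative. Uncalled log2 fold changes near 0 did. *Chgb* in AC went from -0.05 to 0.17 with library size alone and 0.11 with duplicate 2 alone (-0.17 to 0.11 over the fits without 1 culture). *Chgb* in BAC went from -0.04 to 0.13 with library size alone and 0.23 with duplicate 2 alone (-0.19 to 0.11). *Chgb* in BPAC went from -0.02 to 0.21 with limma-voom, 0.21 with library size alone, 0.20 with the block (also without the PAC cultures) and 0.13 with duplicate 2 alone (-0.22 to 0.28). *Gcg* in AC was 0.068 with library size alone. *Neurod1* in BAC was -0.024 with the 5 CPM filter and -0.16 with duplicate 1 alone (-0.097 to 0.16, with -0.014 without duplicate 2 of BAC donor 1), and in BPAC -0.12 with duplicate 2 alone (-0.14 to 0.52, with -0.065 without duplicate 2 of BPAC donor 2). *Tac1* in PAC was -0.14 with duplicate 1 alone. The 5 CPM filter removed *Pax4*, which had no value there. Library size alone moved the median of all genes by 0.13 to 0.23 on the log2 scale. The cause of these shifts was not tested.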
